A study of Rattus norvegicus with 26 samples.

Results

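The 9 genes described here are Aqp4, Kcnj10, Slc1a2, Slc1a3, Gja1, Gjb6, Glul, Aldh1l1 and Slc4a4. All but Aldh1l1, a folate enzyme gene used as a general astrocyte marker, serve the water, potassium, glutamate, acid-base and coupling functions of resting astrocytes. The set is the 9 rows with these gene symbols among the 32883 genes of the count table, a rule that uses no measured value. The genes themselves were chosen with earlier results of these data known. Their Ensembl identifiers are ENSRNOG00000016043 for Aqp4, ENSRNOG00000007705 for Kcnj10, ENSRNOG00000005479 for Slc1a2, ENSRNOG00000016163 for Slc1a3, ENSRNOG00000000805 for Gja1, ENSRNOG00000022116 for Gjb6, ENSRNOG00000049560 for Glul, ENSRNOG00000047023 for Aldh1l1 and ENSRNOG00000003134 for Slc4a4, and all are annotated as protein coding. Transcript levels were measured by poly(A) RNA-seq in 26 libraries from 5 mm segments of the spinal cord of wild type Sprague-Dawley rats, adult females of 250 g that the labels place at postnatal day 70. Intact (n = 4) came from untreated rats, given as intact or sham in the paper. In all other groups the cord had been compressed at T10 for 1 min with an aneurysm clip of 60 g force. The sub-SCI group (n = 3) was taken at day 7 after injury, the time of transplantation. Mesenchymal stem cells from human umbilical cord (hUC-MSCs) or PBS were then injected intrathecally, and the segments centered at the lesion were taken at 1, 2 or 4 weeks post-transplantation (wpt) as +MSC-1w (n = 3), +MSC-2w (n = 3), +MSC-4w (n = 4), +PBS-1w (n = 3), +PBS-2w (n = 2) and +PBS-4w (n = 4). These library numbers follow the labels. The paper's methods instead state 2 repeats for +MSC-2w, while its results speak of 3 +MSC-2w samples. Rats were given cyclosporin A daily against rejection, as stated in the paper without naming groups. Each segment holds every cell type of the lesion, including invading cells, and astrocytes were not isolated. The paper calls the libraries of a group biological replicates, while the labels do not tie them to single animals, and the p-values measure the spread between these libraries.

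Astrocytes keep the extracellular space of the spinal cord in balance. Their membranes take up the glutamate that neurons release, clear potassium after firing, and move water and bicarbonate, while gap junctions join neighboring astrocytes so that ions and metabolites can spread between them. Much of this machinery sits on end-feet around blood vessels and on fine processes at synapses. After injury astrocytes become reactive, a state known for high levels of intermediate filament genes.

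All 9 genes passed the filter on low counts and were tested among 17990 genes. Their counts ranged from 449 (Gjb6 in sub-SCI replicate 2) to 109685, and together they took between 0.411% and 0.733% of the counts of a library. Total counts per library lay between 19496602 and 43468509. Levels below are CPM, counts scaled to a common library size with TMM factors, with libraries listed in the order of their replicate numbers, and "changed" means an adjusted p under 0.05 in edgeR's quasi-likelihood test across all genes tested. Because the tissue was sequenced in bulk, fewer astrocytes and less RNA per astrocyte cannot be told apart. Markers of other cell types differed between the groups. The summed level of 7 neuron markers was 4981 to 6162 CPM in Intact and 211 to 1012 CPM in sub-SCI. That of 7 microglia and macrophage markers was 277 to 446 CPM in Intact and 2680.5 to 3574 CPM in sub-SCI, and that of 6 fibroblast markers 123 to 1026 CPM and 6554 to 13524 CPM. The 7 oligodendrocyte markers summed to 49817 to 56401 CPM in Intact and 16726 to 34263 CPM in sub-SCI. The part of these cells in the levels below was not tested. Among the endothelial markers, Cldn5 had no read in any library.

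By their marker sums, 2 of the +PBS libraries stand apart from their groups. In +PBS-4w replicate 1 the neuron marker sum was 3009.8 CPM, against 814, 872 and 1052 CPM in the other libraries of its group, and its fibroblast marker sum was 1014 CPM, against 3619, 3030.1 and 3776 CPM. In +PBS-1w replicate 3 the sum of 5 Schwann cell markers was 3033 CPM, against 261 and 309 CPM, and the fibroblast marker sum was 7600.3 CPM, against 3332 and 3314 CPM. Several of the main results that rest on these libraries are also given without them. Others are not, such as the count of changed genes in +PBS-1w against Intact and the values of Gja1, Slc4a4 and Aldh1l1 there. Nor are the value of Glul in +PBS-4w against Intact and the correlations between genes. Marker sums were spread in other groups too. The neuron marker sum in +PBS-2w was 1173 CPM in the lower and 2459 CPM in the higher library. The paper describes a +PBS-2w sample that clustered with +MSC-2w as an outlier, without giving its replicate number. In +MSC-2w the Schwann cell marker sum was 1148 CPM in replicate 1, against 190.4 and 197 CPM, and the fibroblast marker sum was 729.7 CPM, against 333 and 359 CPM. In Intact the Schwann cell marker sum ranged over 9.99 to 1209 CPM. Libraries of these groups were left out only 1 at a time.

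In the Intact cord the 9 genes differed widely in level. As reads per unit of gene model length and of library size (RPKM, n = 4, ± SD), Glul, which codes for the enzyme that turns glutamate into glutamine, stood highest at 878 ± 76.8, followed by the water channel gene Aqp4 at 365 ± 13.8. The glutamate transporter gene Slc1a2 stood at 291 ± 61.8 RPKM and the potassium channel gene Kcnj10 at 167 ± 21.4 RPKM. Their gene models are the shortest of the 9, with 882 and 1420 bases, so their level per length depends on the part of the transcript that the annotation holds. Next came Gja1, the main connexin gene of astrocytes, at 138 ± 5.87 RPKM. The bicarbonate cotransporter gene Slc4a4 (66.3 ± 6.31 RPKM), the other glutamate transporter gene Slc1a3 (58.8 ± 3.21 RPKM) and the connexin gene Gjb6 (48.8 ± 5.42 RPKM) were lower, and Aldh1l1, which codes for a folate enzyme used as a general astrocyte marker, was lowest at 18.7 ± 2.38 RPKM. The plot of the 9 genes by library shows how each level moved across the 8 groups.

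**Figure D1:**
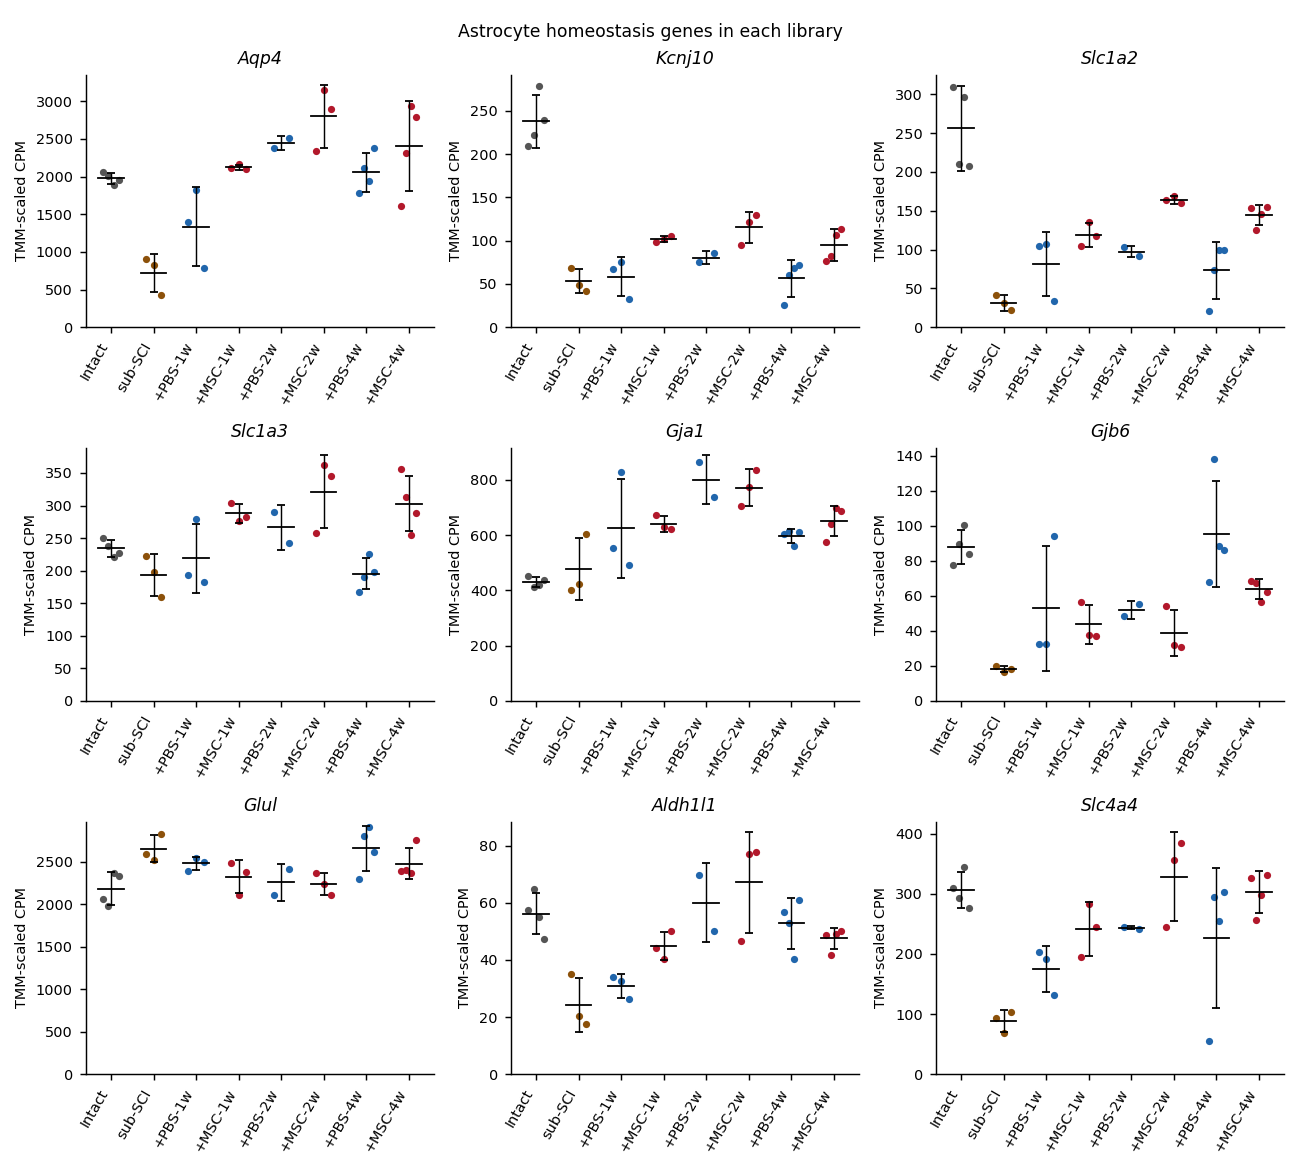
TMM-scaled CPM of each of the 9 genes in the 26 libraries (1 point per library), by group, with the group mean and SD as lines. Kcnj10 and Slc1a2 lie below every Intact library in all injured groups, Gjb6 falls to between 16.3 and 19.7 CPM in sub-SCI, and Glul stays between 1983 and 2909 CPM throughout.

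The first question was what the injury did to these genes before any transplant. At sub-SCI, 6 of the 9 genes were lower than in Intact, 1 was higher and 2 did not pass the test. Slc1a2, Gjb6, Kcnj10, Slc4a4, Aqp4 and Aldh1l1 had log2 fold changes between -3.03 and -1.21, and all 6 also met the stricter rule of the study's DEGs (absolute log2 fold change above 1 and adjusted p under 0.01). Slc1a3 and Gja1 did not pass the test, and Glul rose slightly. These counts stand beside a large background: 61.4% of all genes tested changed in this comparison (30.5% higher and 30.9% lower), and 34.1% met the stricter rule. The median log2 fold change of the 9 genes was -1.46, against -0.02 over all genes tested. In +PBS-1w, 4 of the 9 genes were lower and 1 was higher than in Intact (background 26.4% lower and 26.7% higher). In +PBS-2w, 2 were lower and 1 was higher (background 17% and 19.7%), and in +PBS-4w, 2 were lower and 2 were higher (background 23.9% and 28.6%). Fits of only the +PBS-2w and Intact libraries called 6 of the 9, with edgeR beside 48.4% of all genes and with DESeq2 beside 44.8%. The median of the 9 log2 fold changes against Intact was -0.73, 0.05 and -0.09 at 1, 2 and 4 wpt, and that of all genes tested lay between -0.01 and 0.05. These 4 comparisons share the Intact libraries. Between sub-SCI and Intact, the libraries lay fully apart, with no overlap of their ranges, for 66.9% of all genes tested. For +PBS-1w, +PBS-2w and +PBS-4w against Intact this share was 59%, 62.4% and 43.7%.

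**Figure D2:**
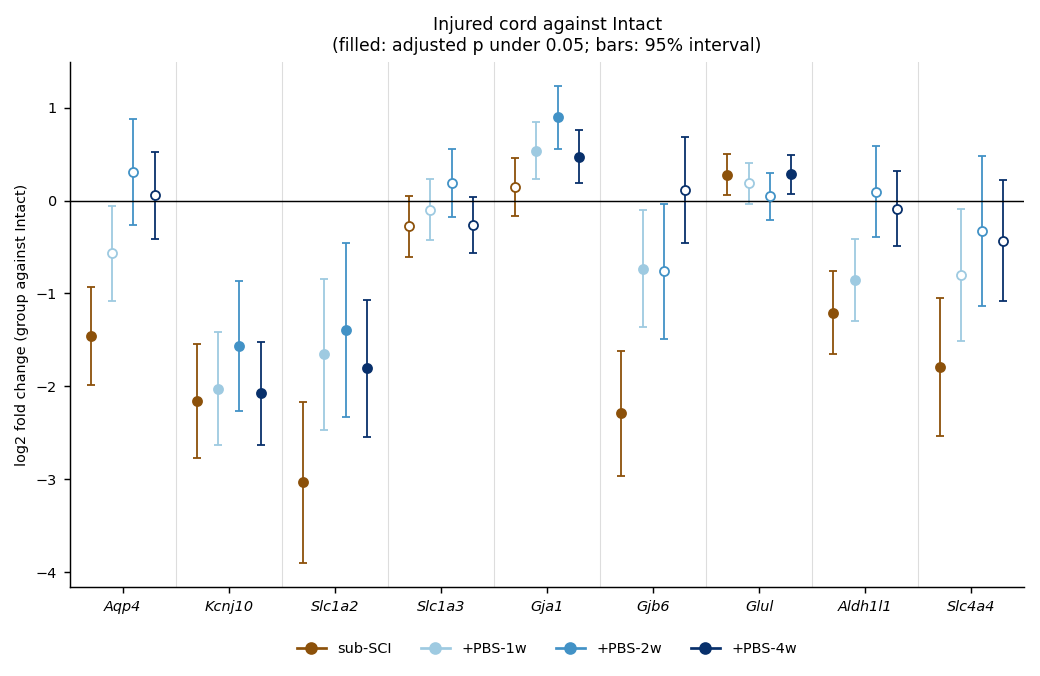
Log2 fold change of each of the 9 genes against Intact in sub-SCI and in +PBS at 1, 2 and 4 wpt, with 95% intervals; filled points have an adjusted p under 0.05. Kcnj10 and Slc1a2 stay low from -1.40 to -3.03 at all 4 times, while Aqp4, Gjb6, Aldh1l1 and Slc4a4 lie nearer to 0 at 4 wpt, at 0.06, 0.11, -0.09 and -0.43.

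The DNA upstream of the genes that stayed low, Slc1a2 and Kcnj10, and of the connexin gene that was higher in +PBS, Gja1, is shown here because these 3 genes differed from Intact at every week in +PBS. The sequences are the 250 bases before the start site in RefSeq on GRCr8, a later build than the one the reads were aligned to. Capitals mark matches to the SP1 motif (GGGCGG or CCGCCC) in Kcnj10 and to the AP-1 motif (TGANTCA) in Gja1.
Slc1a2 promoter, chr3:109459859-109460108, plus strand: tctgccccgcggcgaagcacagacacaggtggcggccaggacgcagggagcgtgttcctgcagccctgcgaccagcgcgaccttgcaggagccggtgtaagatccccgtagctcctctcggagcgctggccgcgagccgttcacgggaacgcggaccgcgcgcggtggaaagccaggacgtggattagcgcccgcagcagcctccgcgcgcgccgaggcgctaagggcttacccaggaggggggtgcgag
Kcnj10 promoter, chr13:87334260-87334509, plus strand: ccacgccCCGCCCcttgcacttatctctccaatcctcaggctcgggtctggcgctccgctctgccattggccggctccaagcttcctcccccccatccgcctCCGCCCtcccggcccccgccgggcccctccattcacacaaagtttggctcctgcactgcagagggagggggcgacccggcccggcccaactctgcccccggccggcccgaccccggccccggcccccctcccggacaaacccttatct
Gja1 promoter, chr20:36302314-36302563, plus strand: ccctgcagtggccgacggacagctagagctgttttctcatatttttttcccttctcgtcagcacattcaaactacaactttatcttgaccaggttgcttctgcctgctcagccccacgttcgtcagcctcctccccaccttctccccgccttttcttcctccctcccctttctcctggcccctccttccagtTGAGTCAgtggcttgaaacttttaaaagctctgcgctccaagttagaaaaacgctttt
All 9 genes matched the RefSeq table, with 15 start sites. The printed windows of Slc1a2, the first of its 2 start sites, and of Kcnj10 were rich in G and C, at 71.2% and 72.4%, and that of Gja1 held 51.2%, against a median of 51.2% (quartiles 44.0% and 60.0%) over 33469 rat promoter windows. The first Slc1a2 window has 33 CpG dinucleotides and the Kcnj10 window 20, against a median of 5. The window of the other Slc1a2 start site holds 45.6% G and C and 2 CpG dinucleotides. Both strands were searched. The AP-1 motif was found in 1 of the 15 windows, 58 to 52 bases before the Gja1 start site, and in 6.34% of all windows. The SP1 motif occurred in 7 of the 15, at start sites of Aldh1l1, Aqp4, Gjb6, Glul and Kcnj10, and in 30.5% of all windows. The STAT motif (TTCNNNGAA, 7.67% of all windows) and the TATA motif (TATAAA, 12.9%) were in none of the 15 windows. A match describes the letters only.

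The glutamate group consists of both astrocyte transporters and the enzyme that handles what they take up. Slc1a2, whose product is the transporter that clears most glutamate in the adult forebrain, had 309.7, 210.3, 297 and 208 CPM in Intact and 41.3, 30.7 and 21.8 CPM in sub-SCI. Every sub-SCI library lay far below every Intact library, and the gene stood at 12.2% of its Intact mean (log2 fold change -3.03, SE 0.42, adjusted p = 2.2e-06), the largest fall of the 9. It was 104, 107 and 33.4 CPM in +PBS-1w, 103 and 92.1 CPM in +PBS-2w and 21.4, 73.8, 99.2 and 99.1 CPM in +PBS-4w. One library in each of the first and the last of these groups, the same libraries that stand apart by their markers, was about as low as sub-SCI, and the others lay between the sub-SCI and the Intact levels. Against Intact the log2 fold change was -1.65 (SE 0.39, adjusted p = 0.0012) at 1 wpt, -1.40 (SE 0.45, adjusted p = 0.0191) at 2 wpt and -1.80 (SE 0.35, adjusted p = 0.000233) at 4 wpt. Without +PBS-1w replicate 3 the value at 1 wpt was -1.28 (SE 0.38, adjusted p = 0.00936), and without +PBS-4w replicate 1 that at 4 wpt was -1.45 (SE 0.28, adjusted p = 0.000179). At 2 wpt the call was lost when either +PBS-2w library was left out (adjusted p = 0.129 and 0.112).

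Slc1a3, the glutamate transporter gene of radial glia and cerebellar glia as well as of astrocytes, behaved differently. It had 251, 238, 222 and 227 CPM in Intact and 223, 198 and 159 CPM in sub-SCI. The ranges overlapped only in sub-SCI replicate 1, and the difference did not pass the test (log2 fold change -0.28, SE 0.16, adjusted p = 0.13, 95% interval -0.60 to 0.05). In +PBS it stayed within 0.27 of Intact on the log2 scale at every week (-0.10, 0.19 and -0.27, adjusted p = 0.621, 0.435 and 0.129). Glul had 2055, 1983, 2361 and 2329 CPM in Intact and 2594, 2524 and 2829 CPM in sub-SCI. All sub-SCI libraries were above all Intact libraries, but the rise was small (log2 fold change 0.28, SE 0.11, adjusted p = 0.0286) and did not pass the test without sub-SCI replicate 3 (adjusted p = 0.113). At 4 wpt Glul in +PBS was again higher than in Intact (log2 fold change 0.28, SE 0.10, adjusted p = 0.0218), a call that was lost without +PBS-4w replicate 2 or 3 (adjusted p = 0.057 and 0.0749). With single libraries left out, this value ranged over 0.24 to 0.40.

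The potassium and water channel genes of the end-foot were both low at sub-SCI and then parted. Kcnj10, which codes for the inwardly rectifying channel that buffers potassium, had 209, 222, 279 and 239.7 CPM in Intact and 68.3, 49.2 and 42.04 CPM in sub-SCI. No injured library reached the lowest Intact library, and the fall was 4.46-fold (log2 fold change -2.16, SE 0.30, adjusted p = 2.15e-06). In +PBS the level was 67.6, 74.98 and 32.7 CPM in +PBS-1w, 75.01 and 85.99 CPM in +PBS-2w and 25.9, 60.1, 68.01 and 71.8 CPM in +PBS-4w. The log2 fold change against Intact was -2.02 (SE 0.29, adjusted p = 7.91e-06), -1.56 (SE 0.34, adjusted p = 0.00116) and -2.07 (SE 0.27, adjusted p = 1.72e-06) at 1, 2 and 4 wpt, and each of these calls held when any single library was left out, with -1.74 (SE 0.30, adjusted p = 8.87e-05) at 1 wpt without +PBS-1w replicate 3 and -1.78 (SE 0.23, adjusted p = 1.45e-06) at 4 wpt without +PBS-4w replicate 1. Aqp4, the water channel gene of astrocyte end-feet, had 2063, 2010.4, 1889.8 and 1949 CPM in Intact and 909.6, 820.3 and 431 CPM in sub-SCI. It fell to 36.4% of Intact (log2 fold change -1.46, SE 0.25, adjusted p = 3.95e-05). In +PBS it was 1392, 1828 and 788 CPM at 1 wpt, 2376 and 2514 CPM at 2 wpt and 1782, 2119.7, 1942 and 2376 CPM at 4 wpt. The 1 wpt libraries were spread from the sub-SCI range to nearly the Intact range, and at 2 and 4 wpt the levels were near or above Intact. The log2 fold change was -0.57 (SE 0.25, adjusted p = 0.0581), 0.31 (SE 0.27, adjusted p = 0.405) and 0.06 (SE 0.23, adjusted p = 0.856), none of which passed the test, and at 1 wpt it was -0.30 (SE 0.24, adjusted p = 0.33) without +PBS-1w replicate 3. Leaving out +PBS-1w replicate 2 brought Aqp4 past the test at 1 wpt, at -0.86 (adjusted p = 0.0105).

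The connexin genes, whose products form the gap junctions between astrocytes, parted as well. Gja1 had 453, 411, 421 and 438 CPM in Intact and 400.4, 423 and 605 CPM in sub-SCI, with overlapping ranges (log2 fold change 0.14, SE 0.15, adjusted p = 0.413). It rose in +PBS, to 552, 828 and 493 CPM at 1 wpt, 863 and 738 CPM at 2 wpt and 603, 614, 561 and 610.2 CPM at 4 wpt. Every +PBS library was above the highest Intact library, and the log2 fold change was 0.54 (SE 0.15, adjusted p = 0.00436), 0.89 (SE 0.16, adjusted p = 0.000255) and 0.47 (SE 0.14, adjusted p = 0.00687). The call at 1 wpt was lost without +PBS-1w replicate 2, at 0.28 (adjusted p = 0.0917). Gjb6, the second astrocyte connexin gene, had 77.7, 89.5, 101 and 84.1 CPM in Intact and 19.7, 16.3 and 18.04 CPM in sub-SCI. The 3 injured libraries were close to each other and 4.89-fold below Intact (log2 fold change -2.29, SE 0.32, adjusted p = 3.06e-06). In +PBS-1w it was 32.4, 32.3 and 94.3 CPM. There replicate 3, a library that stands apart, was in the Intact range, and the other libraries lay above sub-SCI and below Intact. The log2 fold change of -0.73 (SE 0.30, adjusted p = 0.0463) became -1.44 (SE 0.26, adjusted p = 0.000124) without that library, and the call was lost when any of the other 6 libraries was left out. In +PBS-2w it was 48.3 and 55.6 CPM (-0.76, SE 0.35, adjusted p = 0.092) and in +PBS-4w 68.2, 138, 88.3 and 86.2 CPM, around the Intact levels (0.11, SE 0.28, adjusted p = 0.754).

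Slc4a4, which couples sodium and bicarbonate transport and so buffers pH, had 309, 294, 345 and 277 CPM in Intact and 93.97, 68.2 and 103 CPM in sub-SCI. The groups lay far apart (log2 fold change -1.79, SE 0.36, adjusted p = 0.000178). In +PBS it had 204, 191 and 132 CPM at 1 wpt, 245 and 242 CPM at 2 wpt and 54.6, 295, 255 and 303 CPM at 4 wpt, where replicate 1 was below the sub-SCI libraries and the other 3 reached from below to within the Intact range. The log2 fold change against Intact was -0.80 (SE 0.34, adjusted p = 0.0552), -0.33 (SE 0.39, adjusted p = 0.535) and -0.43 (SE 0.31, adjusted p = 0.259), the last of which was -0.06 (SE 0.17, adjusted p = 0.797) without +PBS-4w replicate 1. Aldh1l1 had 57.4, 64.8, 55.1 and 47.4 CPM in Intact and 34.97, 20.5 and 17.5 CPM in sub-SCI, again without overlap (log2 fold change -1.21, SE 0.22, adjusted p = 5.38e-05). It was 33.9, 32.8 and 26.2 CPM in +PBS-1w, still below every Intact library (-0.86, SE 0.21, adjusted p = 0.00188). At 2 and 4 wpt it was 69.8 and 50.2 CPM and 56.8, 52.99, 40.5 and 61.1 CPM, near the Intact levels, with log2 fold changes of 0.10 (SE 0.24, adjusted p = 0.784) and -0.09 (SE 0.19, adjusted p = 0.731).

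The change from sub-SCI to +PBS-4w was tested itself, as a comparison of injured cords without hUC-MSCs at day 7 and 4 weeks later. These groups differ in the intrathecal PBS injection as well as in time, which cannot be told apart here. Of the 9 genes, 5 were higher at the later time and none was lower, beside a background of 13.4% higher and 11.6% lower. Gjb6 rose most, 5.29-fold (log2 fold change 2.40, SE 0.32, adjusted p = 2.56e-05), followed by Aqp4 with 1.51 (SE 0.25, adjusted p = 0.000222), Slc4a4 with 1.36 (SE 0.35, adjusted p = 0.00723), Slc1a2 with 1.23 (SE 0.39, adjusted p = 0.0236) and Aldh1l1 with 1.12 (SE 0.22, adjusted p = 0.00074). Kcnj10 stood at 53.2 ± 13.6 CPM (SD, n = 3) in sub-SCI and at 56.4 ± 20.97 CPM (SD, n = 4) in +PBS-4w, a log2 fold change of 0.08 with a 95% interval of -0.49 to 0.66 (adjusted p = 0.859). Gja1 at 0.33 (SE 0.15, adjusted p = 0.117), Slc1a3 at 0.01 (SE 0.16, adjusted p = 0.968) and Glul at 0.00 (SE 0.11, adjusted p = 0.989) did not pass the test. The Slc1a2 call was lost without sub-SCI replicate 2 or 3 or without +PBS-4w replicate 3 or 4 (adjusted p = 0.0648, 0.125, 0.0661 and 0.067), and without +PBS-4w replicate 1 it was 1.52 (SE 0.30, adjusted p = 0.000632). With only the sub-SCI and +PBS-4w libraries in edgeR, 3 genes passed the test (Gjb6, Aqp4 and Aldh1l1), beside 10% of all genes. Without +PBS-4w replicate 1, 5 genes still passed the test, beside 34.8% of all genes, with Slc4a4 at 1.67 (SE 0.19, adjusted p = 4.77e-06) and Gjb6 at 2.52 (SE 0.33, adjusted p = 1.58e-05), and Kcnj10 stood at 0.31 (SE 0.23, adjusted p = 0.305). Over the same interval the sum of 4 ependymal markers was 6.65 to 14.8 CPM in sub-SCI and 33.5 to 52.3 CPM in +PBS-4w, and that of the Schwann cell markers 259 to 687 CPM and 1503 to 3119 CPM. The microglia and macrophage marker sum was 2680.5 to 3574 CPM in sub-SCI and 1488 to 2388 CPM in +PBS-4w, and the fibroblast marker sum 6554 to 13524 CPM and 1014 to 3776 CPM. The part of these cells in the result was not tested.

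The second question was what hUC-MSCs did to the same genes. Averaged over the 3 weeks, 3 of the 9 genes were higher in +MSC than in +PBS and none was lower: Kcnj10 1.61-fold, Slc1a2 1.69-fold and Slc1a3 1.35-fold. The background was 12.3% of genes higher and 10.9% lower, and the median log2 fold change was 0.36 for the 9 genes and -0.02 for all genes tested. At the single weeks the test called 1 gene in all. None of the 9 changed at 1 wpt in edgeR's test, where 0.1% of all genes did, none at 2 wpt, where 0% did, and 1 was higher at 4 wpt, beside 3.07% of all genes higher and 0.928% lower. At an unadjusted p under 0.05, 4 of the 9 were higher at 1 wpt (background 17.9% in either direction), none at 2 wpt (12.3%), and 3 were higher and 1 lower at 4 wpt (22.5%). DESeq2 on all libraries also called none of the 9 at 1 and 2 wpt, beside 4.66% and 1.11% of all genes, and DESeq2 on the groups compared called 1 at each week, beside 9.26% and 7.55%: Aldh1l1 at 1 wpt (adjusted p = 0.0476) and Slc1a2 at 2 wpt (adjusted p = 1.3e-06). At 2 wpt edgeR on the groups compared called Slc1a2 as well (adjusted p = 0.0419), beside 1.12% of all genes. A test of whether the +MSC effect differed between the weeks called none of the 9 and 0% of all genes in edgeR (none of the 9 at an unadjusted p under 0.05, background 2.67%), and DESeq2 on all libraries called none of the 9 either, beside 0.0152% of all genes.

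**Figure D3:**
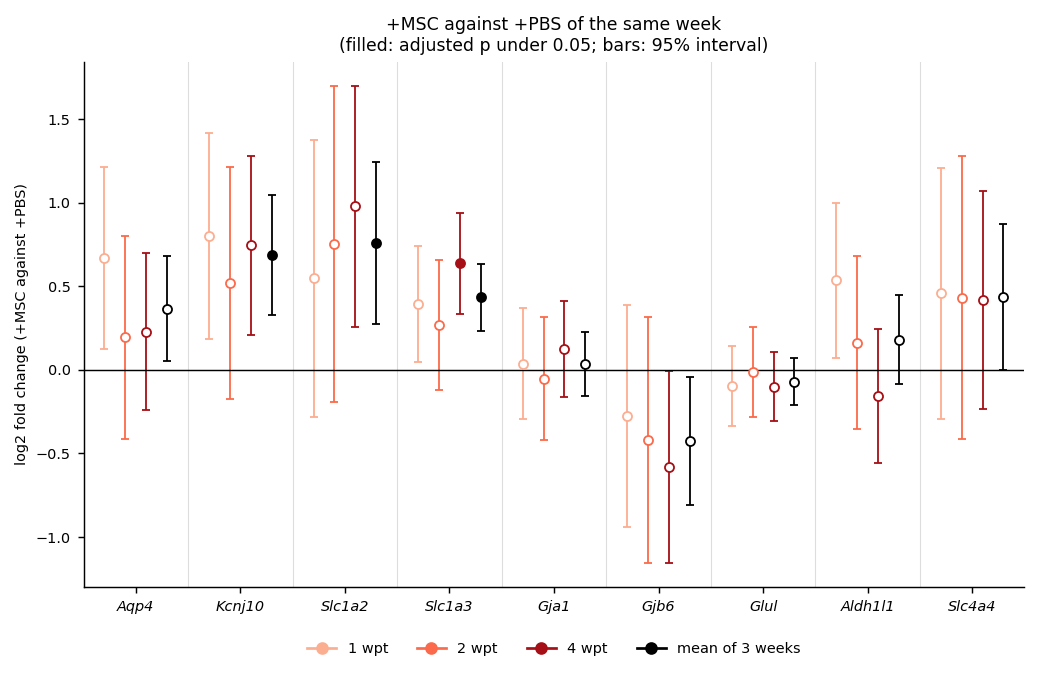
Log2 fold change of +MSC against +PBS for each of the 9 genes at 1, 2 and 4 wpt and as the mean of the 3 weeks, with 95% intervals; filled points have an adjusted p under 0.05. The weekly intervals are wide, and the means of Kcnj10 (0.69), Slc1a2 (0.76) and Slc1a3 (0.43) are the filled ones among the means, whereas Gjb6 lies below 0 at each week, at 1 wpt only with +PBS-1w replicate 3 included.

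Kcnj10 in the +MSC groups was 98.5, 102 and 105 CPM at 1 wpt, 95.004, 121 and 129.7 CPM at 2 wpt and 76.3, 82.1, 106 and 114 CPM at 4 wpt. At each week every +MSC library was above every +PBS library of that week, and all stayed below the lowest Intact library. Libraries of +MSC and +PBS lay fully apart for 26.9%, 37% and 10.5% of all genes tested at 1, 2 and 4 wpt. Between +MSC and Intact this share was 50%, 40.1% and 38.7%. The log2 fold change was 0.80 (SE 0.30, adjusted p = 0.174), 0.52 (SE 0.33, adjusted p = 0.532) and 0.75 (SE 0.26, adjusted p = 0.0964), with a mean of 0.69 (SE 0.17, adjusted p = 0.00784). Without +PBS-1w replicate 3 the value at 1 wpt was 0.51 (SE 0.29, adjusted p = 0.548), and without +PBS-4w replicate 1 that at 4 wpt was 0.48 (SE 0.22, adjusted p = 0.128). The mean ranged over 0.58 to 0.76 when single libraries were left out, and passed the test in all cases but the one without +PBS-2w replicate 1 (adjusted p = 0.053). Slc1a2 was 105, 135 and 117 CPM, 163, 169.5 and 159.7 CPM and 153, 125, 145 and 154 CPM at 1, 2 and 4 wpt. The groups overlapped at 1 wpt and were apart at 2 and 4 wpt, with +MSC above +PBS. Its log2 fold change was 0.55 (SE 0.40, adjusted p = 0.505), 0.75 (SE 0.45, adjusted p = 0.504) and 0.98 (SE 0.35, adjusted p = 0.104), and 0.76 (SE 0.23, adjusted p = 0.0233) as the mean, which was lost without either +PBS-2w library (adjusted p = 0.0814 and 0.0601). Without +PBS-1w replicate 3 its value at 1 wpt was 0.18 (SE 0.38, adjusted p = 0.939), and without +PBS-4w replicate 1 that at 4 wpt was 0.64 (SE 0.27, adjusted p = 0.108).

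Slc1a3 was 304, 277 and 282 CPM, 258, 362 and 345 CPM and 356, 313, 255 and 289 CPM at 1, 2 and 4 wpt in +MSC. At 4 wpt all +MSC libraries lay above all +PBS libraries, and this was the one weekly call among the 9 genes (log2 fold change 0.64, SE 0.14, adjusted p = 0.0174). It was lost without +MSC-4w replicate 1 or +PBS-4w replicate 2 (adjusted p = 0.0791 and 0.0607) and when only these 2 groups entered edgeR (adjusted p = 0.0902). Without +PBS-4w replicate 1 it was 0.54 (SE 0.15, adjusted p = 0.021). The mean over the weeks, 0.43 (SE 0.10, adjusted p = 0.00396), passed the test with any single library left out. Gjb6 was 56.5, 37.7 and 37.02 CPM, 53.9, 31.7 and 30.7 CPM and 68.7, 67.5, 56.2 and 62.2 CPM at 1, 2 and 4 wpt in +MSC. It lay below the +PBS mean at each week, and the mean difference did not pass the test (-0.43, SE 0.18, adjusted p = 0.0978). With single libraries left out this mean ranged over -0.53 to -0.19. It was nearest to 0 without +PBS-1w replicate 3 (adjusted p = 0.368) and passed the test without +MSC-2w replicate 1, +PBS-1w replicate 1 or 2 or +PBS-4w replicate 1 (adjusted p between 0.0391 and 0.0486). At 1 wpt its sign rests on +PBS-1w replicate 3, without which the value was 0.44 (SE 0.25, adjusted p = 0.563).

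Aqp4 was 2115, 2163 and 2098 CPM, 2338, 3154 and 2900.0 CPM and 1610.1, 2309, 2931 and 2785 CPM at 1, 2 and 4 wpt in +MSC, above all Intact libraries but for +MSC-4w replicate 1. Its mean difference from +PBS was 0.36 (SE 0.15, adjusted p = 0.0851), which passed the test only without +MSC-4w replicate 1 (adjusted p = 0.0469) or without +PBS-1w replicate 2 (adjusted p = 0.0265). Slc4a4 was 195, 284 and 246 CPM, 245, 356 and 385 CPM and 326, 256, 298 and 332 CPM, with a mean difference of 0.44 (SE 0.21, adjusted p = 0.138). The mean difference of Aldh1l1 was 0.18 (SE 0.13, adjusted p = 0.332) with a 95% interval of -0.09 to 0.45, that of Gja1 0.04 (SE 0.09, adjusted p = 0.818) with an interval of -0.16 to 0.23, and that of Glul -0.07 (SE 0.07, adjusted p = 0.487) with an interval of -0.21 to 0.07. None of these passed the test.

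The mean effect was recomputed without the libraries that stand apart, a choice made after the data were seen. Without +PBS-1w replicate 3, Kcnj10, Slc1a2 and Slc1a3 still passed the test, at 0.59 (SE 0.16, adjusted p = 0.0159), 0.64 (SE 0.21, adjusted p = 0.0409) and 0.40 (SE 0.10, adjusted p = 0.0108). The background was then 15.9% of all genes. Without +PBS-4w replicate 1, 5 genes passed the test, beside 34.6% of all genes: the same 3, at 0.58 (SE 0.14, adjusted p = 0.00268), 0.63 (SE 0.17, adjusted p = 0.00787) and 0.39 (SE 0.10, adjusted p = 0.00427), Slc4a4 at 0.30 (SE 0.11, adjusted p = 0.0381) and, lower in +MSC, Gjb6 at -0.50 (SE 0.18, adjusted p = 0.0391). Without both, the calls were Kcnj10, Slc1a2 and Slc1a3, at 0.51 (SE 0.11, adjusted p = 0.00152), 0.53 (SE 0.12, adjusted p = 0.00234) and 0.37 (SE 0.10, adjusted p = 0.00664), beside 28.4% of all genes. At 4 wpt, leaving out both brought the count of changed genes from 1 to 4, beside 20.1% of all genes, with Kcnj10 at 0.51 (SE 0.16, adjusted p = 0.0326), Slc1a2 at 0.67 (SE 0.18, adjusted p = 0.0127), Slc1a3 at 0.57 (SE 0.15, adjusted p = 0.0104) and Gjb6 at -0.71 (SE 0.19, adjusted p = 0.0133). Without +PBS-4w replicate 1 alone the count stayed at 1. The other library, +PBS-1w replicate 3, is in neither group compared at 4 wpt and enters only through the fit that all groups share. Markers of other cells moved with the treatment as well. The neuron marker sum ranged over 1856 to 3369.5, 2751 to 4379.7 and 2619.7 to 3474 CPM in +MSC and over 567 to 1148, 1173 to 2459 and 814 to 3009.8 CPM in +PBS at 1, 2 and 4 wpt. All 7 neuron markers were higher and all 6 fibroblast markers lower in +MSC on the mean of the weeks. The fibroblast marker sum ranged over 1658 to 2585, 333 to 729.7 and 555 to 2094 CPM in +MSC and over 3314 to 7600.3, 1274 to 1821 and 1014 to 3776 CPM in +PBS. The part of these cells in the levels of the 9 genes was not tested.

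Set against Intact, Kcnj10 was lower and Gja1 higher in all 3 +MSC groups. In +MSC-1w, 3 of the 9 genes were lower than in Intact and 1 was higher (background 14.8% and 18.3%), in +MSC-2w 2 were lower and 2 higher (6.44% and 12.7%), and in +MSC-4w 1 was lower and 1 higher (13.6% and 17.7%). Fits of only the +MSC-4w and Intact libraries called 5, with edgeR beside 42.9% of all genes and with DESeq2 beside 40.2%. The log2 fold change of Kcnj10 was -1.22 (SE 0.29, adjusted p = 0.00245), -1.04 (SE 0.28, adjusted p = 0.012) and -1.33 (SE 0.26, adjusted p = 0.00057), the second of which was lost without +MSC-2w replicate 1 (adjusted p = 0.0536). That of Gja1 was 0.57 (SE 0.15, adjusted p = 0.00552), 0.84 (SE 0.15, adjusted p = 0.000263) and 0.59 (SE 0.14, adjusted p = 0.00273). Gjb6 was lower at 1 and 2 wpt, at -1.01 (SE 0.31, adjusted p = 0.0151) and -1.18 (SE 0.31, adjusted p = 0.00895), and either call was lost without replicate 2 or 3 of its +MSC group, at an adjusted p between 0.061 and 0.0727. Slc1a2 was lower at 1 wpt (-1.11, SE 0.38, adjusted p = 0.0304), a call that was lost without Intact replicate 1 or 3 or any +MSC-1w library, at an adjusted p between 0.0574 and 0.094. It stood at -0.64 (SE 0.38, adjusted p = 0.248) at 2 wpt and -0.83 (SE 0.35, adjusted p = 0.0731) at 4 wpt. Slc1a3 was higher at 2 wpt (0.46, SE 0.15, adjusted p = 0.0425), but not without Intact replicate 2, 3 or 4 or +MSC-2w replicate 2 or 3, where the adjusted p lay between 0.055 and 0.203. These comparisons share their Intact libraries with those of the injury.

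Ordered by mean level, the 8 groups gave Kcnj10 and Slc1a2 a similar sequence, with Intact on top, the 3 +MSC groups next, the 3 +PBS groups below them and sub-SCI last. For Kcnj10, Intact was clear of +MSC-2w, the lowest +PBS-2w and the highest +PBS-1w library had nearly the same level, and all other neighbors had overlapping ranges. For Slc1a2, Intact was clear of +MSC-2w, +MSC-2w of +MSC-4w and +MSC-1w of +PBS-2w. Gjb6 had another order, with +PBS-4w and Intact on top, +MSC-4w below them, and sub-SCI last and clear of all others. Gja1 was highest in +PBS-2w and +MSC-2w and lowest in Intact, with a gap in the ranges of neighbors only between +MSC-2w and +MSC-4w. For Slc1a3 and Glul no neighbors in the order were clear of each other. For Aqp4 Intact was clear of +PBS-1w, for Aldh1l1 +MSC-1w was clear of +PBS-1w, and for Slc4a4 +MSC-4w was clear of +PBS-2w and +PBS-1w of sub-SCI. Between +MSC-2w and Intact the libraries lay fully apart for 40.1% of all genes tested. This share was 59% between +PBS-1w and Intact and 26.9% between +MSC-1w and +PBS-1w. No such share was taken for the other neighbors called clear here, so those gaps stand without a background.

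Ratios of read counts within a library do not depend on the scaling between libraries. The 3 pairs below were chosen after the data were seen, and are given without a test. The ratio of Slc1a3 to Slc1a2, the transporters that share glutamate uptake, was 0.809, 1.13, 0.747 and 1.09 in Intact and 5.39, 6.45 and 7.29 in sub-SCI. It was 1.86, 2.63 and 5.48 in +PBS-1w, 2.83 and 2.63 in +PBS-2w and 7.805, 2.58, 2.27 and 1.99 in +PBS-4w, and its medians were 2.41, 2.13 and 2.095 in +MSC at 1, 2 and 4 wpt. No injured library came down to the Intact range. The ratio of Gja1 to Gjb6, the connexin genes, was 4.17 to 5.83 in Intact, 20.3 to 33.5 in sub-SCI and 4.44 to 8.85 in +PBS-4w, so that the last group overlapped Intact. In +PBS-1w it was 17.05, 25.6 and 5.23, the last value being that of the library that stands apart. In +MSC-4w it was 8.39 to 12.4. The ratio of Aqp4 to Kcnj10 had medians of 8.59 in Intact, 13.3 in sub-SCI and 24.1, 30.5 and 34.2 in +PBS at 1, 2 and 4 wpt. The +PBS-2w libraries, at 29.2 to 31.7, lay within the range of +PBS-4w, at 28.6 to 68.9. The highest of these values is that of replicate 1, a library that stands apart. In +MSC the medians were 21.3, 24.6 and 26.02, each below the +PBS median of its week.

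**Figure D4:**
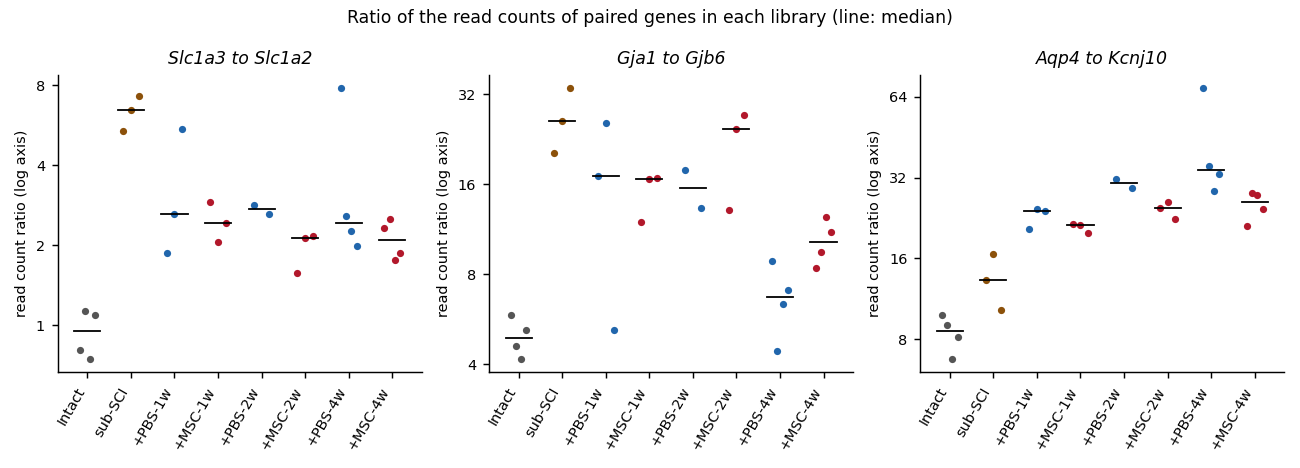
Ratio of read counts of Slc1a3 to Slc1a2, Gja1 to Gjb6 and Aqp4 to Kcnj10 in each library (1 point per library, log axis), by group, with the group median as a line. Intact libraries lie lowest for the first and the third ratio, and for Gja1 to Gjb6 the +PBS-4w libraries, at 4.44 to 8.85, overlap Intact at 4.17 to 5.83.

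The 9 genes did not move as 1 block. Over the 26 libraries the Pearson correlation of log2 CPM among the 36 pairs had a median of 0.45 and was below 0 for 11 pairs, and after the group means were taken off it had a median of 0.21 and was below 0 for 9 pairs. These values are descriptions, since libraries of a group share their treatment and the tissue cut. They include the libraries that stand apart and were not recomputed without them. In its group, +PBS-4w replicate 1 was lowest in Kcnj10, Slc1a2, Slc4a4, Aqp4, Slc1a3, Gjb6 and Glul. Likewise +PBS-1w replicate 3 was lowest in Kcnj10, Slc1a2, Slc4a4, Aqp4, Slc1a3, Gja1 and Aldh1l1 and highest in Gjb6. Values within groups can rest on these libraries. Kcnj10 and Slc1a2 were the closest pair (r = 0.90, and 0.89 within groups), with Slc4a4 close to Slc1a2 (0.89 and 0.80). Aqp4 and Aldh1l1 had r = 0.86, and 0.52 within groups. Glul had r below 0 with all 8 others over the 26 libraries, from -0.54 with Aldh1l1 to -0.02 with Gja1 and Gjb6, but within groups r was above 0 with 5 of the 8, and Gjb6 within groups was below 0 with Aqp4 (-0.51) and Gja1 (-0.43). Among the genes most like the mean of the 9 centered genes were AABR07021812.1, Luzp2, Gabra2 and Gabrb1 (r between 0.961 and 0.965), of which Gabra2 and Gabrb1 code for subunits of the GABA type A receptor. The gene most like Slc1a2 was Ank2 (r = 0.984), an adaptor of the membrane skeleton, that most like Kcnj10 was Usp31 (0.968), and that most like Slc4a4 was Nebl (0.963). For the other genes they were LOC685680 with Aqp4 (0.949), Ccdc136 with Aldh1l1 (0.933), Clic3 with Gjb6 (0.922), Scnn1a with Gja1 (0.856), AABR07064304.1 with Slc1a3 (0.813) and AABR07064702.1 with Glul (0.801).

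**Figure D5:**
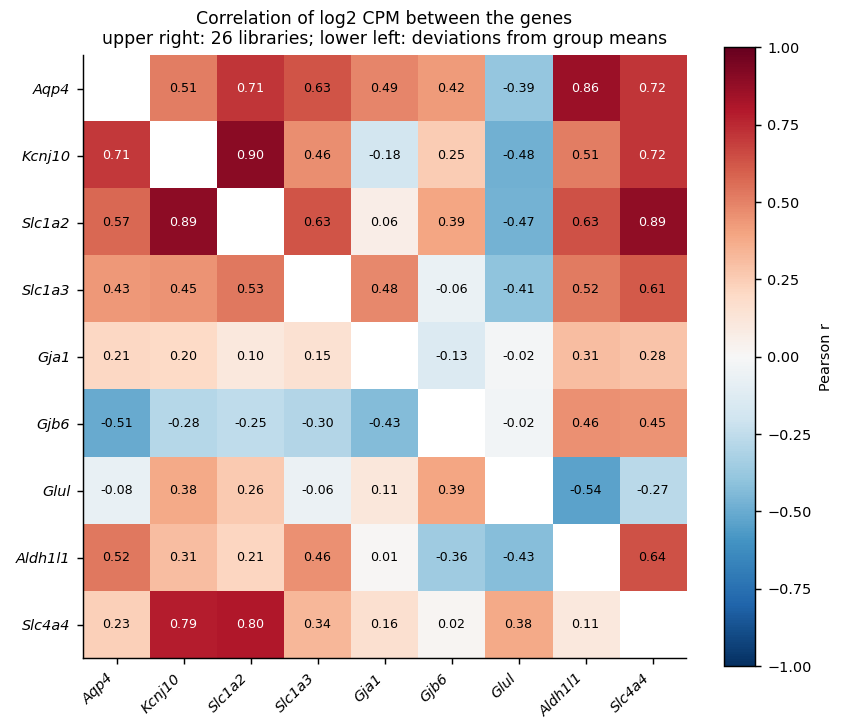
Pearson correlation of log2 CPM between the 9 genes, over 26 libraries in the upper right and for deviations from the group means in the lower left, colored from -1 to 1. Kcnj10, Slc1a2 and Slc4a4 form a close group on both sides of the diagonal (0.72 to 0.90 and 0.79 to 0.89), and Glul has values below 0 with all 8 other genes in the upper right. All libraries are included, also those that stand apart.

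Other genes of the same functions were followed as lists, with log2 fold changes given for the genes named. At sub-SCI the amino acid handling list had 7 of 8 genes lower and none higher, led by the neutral amino acid exchanger gene Slc7a10 (-3.49, SE 0.57, adjusted p = 2.05e-05), the GABA transporter gene Slc6a11 (-3.48, SE 0.33, adjusted p = 1.36e-08) and the mitochondrial glutamate carrier gene Slc25a18 (-2.58, SE 0.42, adjusted p = 1.56e-05). Of 4 potassium and sodium handling genes tested, all were lower, including the potassium channel gene Kcnj16 (-1.21, SE 0.14, adjusted p = 3.13e-07) and the sodium pump subunit gene Atp1b2 (-0.94, SE 0.22, adjusted p = 0.000688). Among 7 end-foot and water genes 5 were lower and none higher, including Dtna of the dystrophin complex (-1.86, SE 0.24, adjusted p = 8.67e-07), Aqp9 (-1.48, SE 0.40, adjusted p = 0.00273) and the adhesion gene Hepacam (-0.99, SE 0.21, adjusted p = 0.000379). Of 13 other astrocyte identity genes 11 were lower and none higher, among them Cldn10 (-1.77, SE 0.33, adjusted p = 9.26e-05), Aldoc (-1.77, SE 0.30, adjusted p = 3.46e-05) and Fgfr3 (-1.62, SE 0.20, adjusted p = 3.76e-07), while Sox9, the glial transcription factor, was at -0.41 (SE 0.29, adjusted p = 0.238). The background was 30.9% of genes lower. The 5 other gap junction genes split, with 2 higher and 3 lower. Gjc1 was at 2.38 (SE 0.30, adjusted p = 6.86e-07), Gjb2 at 1.57 (SE 0.61, adjusted p = 0.0297) and Gjc3, which fell most, at -1.37 (SE 0.41, adjusted p = 0.00658). In the list of 5 acid-base and lactate genes the lactate exporter gene Slc16a3 rose (3.72, SE 0.45, adjusted p = 4.17e-07), Car2 fell (-1.51, SE 0.42, adjusted p = 0.00385) and 3 did not pass the test. Among 9 reactive astrocyte genes, 6 were higher, led by Timp1 (4.41, SE 0.31, adjusted p = 2.73e-10), Vim (3.76, SE 0.34, adjusted p = 7.22e-09) and Osmr (3.25, SE 0.42, adjusted p = 1.03e-06), and S100b was lower (-1.09, SE 0.25, adjusted p = 0.00087). Several of these, such as Vim and Timp1, are also made by invading cells. Gfap, the astrocyte filament gene, was at 0.34 (SE 0.28, adjusted p = 0.308).

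The lists were also compared in +PBS-4w against Intact (background 23.9% lower and 28.6% higher). There the amino acid list still had 5 genes lower and 1 higher, with Slc7a10 at -2.68 (SE 0.49, adjusted p = 0.000118), Slc6a11 at -2.39 (SE 0.28, adjusted p = 5.7e-07) and Slc6a9 at -1.14 (SE 0.23, adjusted p = 0.000268). The astrocyte identity list had 3 lower and 1 higher of 13, the end-foot list 1 lower and 3 higher of 7, and the potassium and sodium list 2 lower of 4. Gap junction genes were 3 lower and 2 higher of 5, with Gjb2 up most (2.74, SE 0.60, adjusted p = 0.00062), acid-base and lactate genes 2 lower and 3 higher of 5, and 8 of 9 reactive genes were higher, now including Gfap (1.48, SE 0.27, adjusted p = 9.08e-05). Averaged over the weeks, 4 of 8 amino acid handling genes were higher in +MSC than in +PBS and none was lower: Slc6a11 (1.28, SE 0.18, adjusted p = 0.000309), Slc7a10 (1.23, SE 0.32, adjusted p = 0.00957), Slc1a4 (0.31, SE 0.08, adjusted p = 0.0107) and Glud1 (0.31, SE 0.10, adjusted p = 0.0255). None of the 4 potassium and sodium genes passed the test. In the end-foot list Dtna rose (0.49, SE 0.14, adjusted p = 0.0163) and in the identity list S1pr1 (0.39, SE 0.13, adjusted p = 0.0378), with no gene lower in either. Lower in +MSC were 2 of 5 gap junction genes, Gjb2 (-1.53, SE 0.38, adjusted p = 0.00684) and Gjc1 (-0.60, SE 0.18, adjusted p = 0.0221), 1 of 5 acid-base and lactate genes, Slc16a3 (-0.80, SE 0.26, adjusted p = 0.0309), and 4 of 9 reactive genes, with Steap4 (-0.98, SE 0.31, adjusted p = 0.0246), Vim (-0.73, SE 0.20, adjusted p = 0.0119) and Timp1 (-0.54, SE 0.18, adjusted p = 0.0309) ahead, against a background of 12.3% higher and 10.9% lower. Gfap stood at 0.11 (SE 0.17, adjusted p = 0.695).

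These list counts use all libraries, and leaving out both libraries that stand apart moved several of them. In +PBS-4w against Intact, beside 59.3% of all genes, the amino acid list then had 7 lower and 1 higher, the identity list 7 lower and 1 higher, the gap junction list 2 lower and 2 higher, and 7 reactive genes were higher, while the end-foot, potassium and sodium, and acid-base counts were equal to those above. In the mean of the weeks, beside 28.4% of all genes, 6 of 8 amino acid handling genes were higher in +MSC, 3 identity genes were higher and 1 lower, 1 end-foot gene was higher and 1 lower, 1 acid-base and lactate gene was higher and 1 lower, and 5 reactive genes were lower. The potassium and sodium list had no call and the gap junction list 2 lower, as with all libraries. Of the 6 fibroblast markers, 5 were then lower in +MSC, and all 7 neuron markers were higher.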

How the data were processed

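Poly(A) RNA-seq libraries made with an unstranded kit were processed by the authors with Trim Galore 0.5.0, HISAT2 2.1.0, SAMtools 1.9 and featureCounts 1.6.4, as named in the paper and the submitters' processing notes. Reads that aligned to the human genome were removed first, and the rest were aligned to rat Rnor6. The annotation release and the strand setting are not given in the sources used here. The authors deposited raw read counts for 32883 Ensembl genes in 26 libraries, of which 6513 had no count. Removal of human-like reads can lower the counts of genes whose sequence is close to the human one.

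Counts were fitted with edgeR 4.0.16 in R 4.3.3, using filterByExpr (17990 genes tested), TMM scaling and the quasi-likelihood test, with the 8 groups in 1 model and no covariate, and with the Benjamini-Hochberg adjustment taken over the genes tested. The 95% intervals are from the same fit. CPM are TMM-scaled, log2 CPM used a prior count of 2, and RPKM also divide by the gene model length in the count table. The fit was tested on simulated data with known changes. All 9 genes are named. Of each list of related genes, up to 3 with the largest change among those past the test were named, and S100b, Sox9, Gfap and Glud1 were named after their values were seen. Serpina3n, Pecam1 and Foxj1, which are on the lists, had no row under these symbols, and Clcn2 and Cldn5 did not pass the filter. Genes with the most similar pattern were ranked by Pearson's r over 26 libraries. A few genes that these rules would name are not reported here. The 9 genes and the lists were chosen with earlier results of these data known. Alternatives were median-of-ratios size factors, other filters on low counts, DESeq2 1.42.0, fits of only the groups compared, a replicate block, terms for or removal of the replicate 1 libraries, and leaving out each library. A fit without both libraries that stand apart was added after the data were seen.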

Additional observations from a re-analysis of the deposited data

Results flagged for a closer look

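In each group of 4 libraries, a library was singled out where its gap to the nearest other library took up more of the range of the group than Dixon's test allows at the 95% level. Of 36 such groups tested for the 9 genes and the 3 ratios, 3 were singled out, and chance does this to about 1 in 20 groups. The level of Glul in +MSC-4w was highest in replicate 4, at 2750.3 CPM. The ratio of Slc1a3 to Slc1a2 in +PBS-4w was highest in replicate 1, at 7.80, and so was the ratio of Aqp4 to Kcnj10, at 68.9. This library also had the lowest Slc1a2, Kcnj10, Slc4a4, Aqp4, Slc1a3, Gjb6 and Glul levels of its group and the highest neuron marker sum.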

How the results depend on the processing

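The results of the 9 genes were recomputed under the alternatives, as log2 fold changes or, for the test between weeks, adjusted p-values without a direction. Of these 2142 results, 1987 kept their side of the threshold and, where they have one, their direction. A further 52 lost the call, 42 gained one and 61 changed sign. None of the 61 passed the threshold in either fit, and the largest was 0.44. The group means of all 9 genes moved by less than 1 SD under median-of-ratios size factors. Apart from the construction of each alternative, the cause of these changes was not tested.

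The number of the 9 genes that changed was within 1.5 times the reported one except in these cases. Fits of only the groups compared, which have fewer libraries to estimate the spread, called 6 genes with edgeR and 6 with DESeq2 in +PBS-2w against Intact (3 reported, 48.4% and 44.8% of all genes called), 5 and 5 in +MSC-4w against Intact (2 reported, 42.9% and 40.2%), 1 and 1 in +MSC-2w against +PBS-2w (0 reported, 1.12% and 7.55%), 1 with DESeq2 in +MSC-1w against +PBS-1w (0 reported, 9.26%), 0 with edgeR in +MSC-4w against +PBS-4w (1 reported, 0.576%) and 3 with edgeR in +PBS-4w against sub-SCI (5 reported, 10%). Without the replicate 1 libraries the mean of the weeks had 5 calls (3 reported, 16.4% of all genes), and without both libraries that stand apart +MSC-4w against +PBS-4w had 4 (20.1%). With single libraries left out, the number of calls was 1 to 5 for the mean of the weeks (8.75% to 34.6% of all genes), 2 to 4 for +MSC-1w against Intact (22.7% to 30.1%) and for +MSC-2w against Intact (11.8% to 19.3%), and 0 to 1 for +MSC-4w against +PBS-4w (0.891% to 17.1%).

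The sign changes were as follows, as log2 fold changes. Without the replicate 1 libraries it was 0.049 for Slc1a3 in +PBS-1w against Intact, -0.13 for Aldh1l1 in +PBS-2w against Intact, -0.088 for Gja1 in +MSC-1w against +PBS-1w, 0.11 for Gja1 in +MSC-2w against +PBS-2w and -0.025 for Glul in +MSC-2w against Intact. Without both libraries that stand apart it was 0.016 for Slc1a3 in +PBS-1w against Intact, -0.11 for Gja1 in +MSC-1w against +PBS-1w, 0.44 for Gjb6 in +MSC-1w against +PBS-1w and -0.011 for Gja1 in +MSC against +PBS, mean of 3 weeks. With at least 10 counts in every library it was -0.0013 for Gja1 in +MSC-1w against +PBS-1w, 0.0048 for Slc4a4 in +MSC-4w against Intact and -0.0023 for Glul in +PBS-4w against sub-SCI. With edgeR on the groups compared it was -0.0064 for Gja1 in +MSC-1w against +PBS-1w, 0.017 for Slc4a4 in +MSC-4w against Intact, -0.011 for Slc1a3 in +PBS-4w against sub-SCI and -0.020 for Glul in +PBS-4w against sub-SCI. With no filter it was 0.020 for Slc4a4 in +MSC-4w against Intact, -0.031 for Slc1a3 in +PBS-4w against sub-SCI and -0.037 for Glul in +PBS-4w against sub-SCI. With DESeq2 on the groups compared it was 0.0078 for Slc4a4 in +MSC-4w against Intact and -0.00034 for Glul in +PBS-4w against sub-SCI. With median-of-ratios size factors it was -0.026 for Slc1a3 in +PBS-4w against sub-SCI and -0.033 for Glul in +PBS-4w against sub-SCI. With the replicate block it was -0.041 for Kcnj10 in +PBS-4w against sub-SCI and -0.023 for Glul in +PBS-4w against sub-SCI. With the term for replicate 1 it was -0.0039 for Glul in +PBS-4w against sub-SCI. With DESeq2 on all libraries it was -0.026 for Slc1a3 in +PBS-4w against sub-SCI and -0.033 for Glul in +PBS-4w against sub-SCI. With single libraries left out, the range that crossed 0 was -0.064 to 0.26 for Gja1 in sub-SCI against Intact, -0.31 to 0.016 for Slc1a3 in +PBS-1w against Intact, -0.14 to 0.32 for Aldh1l1 in +PBS-2w against Intact, -0.048 to 0.17 for Glul in +PBS-2w against Intact, -0.16 to 0.037 for Aldh1l1 in +PBS-4w against Intact, -0.12 to 0.29 for Gjb6 in +PBS-4w against Intact, -0.022 to 0.17 for Aqp4 in +PBS-4w against Intact, -0.11 to 0.29 for Gja1 in +MSC-1w against +PBS-1w, -0.53 to 0.44 for Gjb6 in +MSC-1w against +PBS-1w, -0.16 to 0.074 for Gja1 in +MSC-2w against +PBS-2w, -0.099 to 0.086 for Glul in +MSC-2w against +PBS-2w, -0.058 to 0.43 for Aldh1l1 in +MSC-2w against +PBS-2w, -0.012 to 0.12 for Gja1 in +MSC against +PBS, mean of 3 weeks, -0.0076 to 0.077 for Glul in +MSC-2w against Intact, -0.029 to 0.27 for Slc4a4 in +MSC-2w against Intact, -0.062 to 0.057 for Slc4a4 in +MSC-4w against Intact, -0.044 to 0.055 for Glul in +PBS-4w against sub-SCI, -0.059 to 0.31 for Kcnj10 in +PBS-4w against sub-SCI and -0.11 to 0.13 for Slc1a3 in +PBS-4w against sub-SCI.

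Whether equal replicate numbers mark pairs cannot be told, since libraries with unlike numbers were not compared. The median correlation of deviations between libraries with the same number was 0.17 for replicate 1 (18 of 28 pairs over 0.1). It was 0.01 for replicate 2 (5 of 28), 0.06 for replicate 3 (7 of 21) and 0.02 for replicate 4 (1 of 3). With the replicate number as a block, 7 genes changed in sub-SCI against Intact, 4 in +PBS-1w and 3 in the mean of the weeks, and the block ended 2 calls, Gjb6 in +PBS-1w against Intact (adjusted p = 0.0533) and Slc1a3 in +MSC-2w against Intact (adjusted p = 0.0553), and changed no other call of the 9 genes. With 2 +PBS-2w libraries, comparisons at 2 wpt have the least precision.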
